A study of Homo sapiens with 9 samples.

Results

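The cholinergic phenotype genes are the 5 genes that make, load, recover and break down acetylcholine: CHAT, SLC18A3, SLC5A7, ACHE and BCHE. Their rows were taken by gene symbol from a table of 25084 genes, a rule that uses no measured value. Of the 5 symbols, 4 had a row in the table; SLC5A7 is not analysed here. Of those 4, SLC18A3, ACHE and BCHE passed the filter on low values (1 CPM or more in 3 or more of the 9 libraries) and were tested, and CHAT did not pass it. CPM scales the reads of a gene to the same total of assigned reads in every library.

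The cells were LAN5, an established human neuroblastoma line in which the MYCN gene is amplified. All 9 libraries were made from total RNA of cells that had been electroporated with a small interfering RNA (siRNA, a short RNA that directs the breakdown of a matching transcript) and then grown in serum-containing medium for 72 h. The 3 groups of 3 libraries received either a control siRNA (siCTR) or 1 that targets MYCN (siMYCN, labelled siMYCN_2) or HAND2 (siHAND2, labelled siHAND2_3). MYCN and HAND2 encode basic helix-loop-helix transcription factors, and the series asks which genes they regulate in these cells. Each target was thus lowered with the siRNA of a single label in a single line, and the labels do not say whether the 3 libraries of a group came from separate cultures, so the p-values measure only the spread between these libraries, which may be technical.

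Acetylcholine is made from choline and acetyl-CoA by choline acetyltransferase (CHAT) and is loaded into synaptic vesicles by the vesicular acetylcholine transporter (SLC18A3). After release it acts on nicotinic and muscarinic receptors and is cleaved by acetylcholinesterase (ACHE) or by the less selective butyrylcholinesterase (BCHE), and the high-affinity choline transporter (SLC5A7) brings the choline back into the nerve ending. Neuroblastoma arises from the sympathoadrenal lineage of the neural crest, whose neurons mostly use noradrenaline, while a minority of sympathetic neurons are cholinergic. Cytokines of the leukaemia inhibitory factor family can switch cultured sympathetic neurons from the noradrenergic to the cholinergic state.

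CHAT and SLC18A3 form a nested locus. In the table CHAT spans chr10:49609095-49667942 on the plus strand (GRCh38), and SLC18A3, chr10:49610310-49612720, lies wholly within that span on the same strand, sharing 2411 bases. In the GENCODE annotation used here, 12 CHAT transcripts are listed. The span of 1 of them holds all of SLC18A3, which has 1 exon, 11 start past it, and 0 have an exon that overlaps it, so SLC18A3 sits in an intron of the longest CHAT transcript. ACHE spans chr7:100889994-100896974 and BCHE chr3:165772904-165837462, both on the minus strand. Neither overlaps another gene of the table. The nearest gene to ACHE, UFSP1, ends 278 bases away, whereas the nearest gene to BCHE, SLITRK3, is 575794 bases away.

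The regions just upstream of RefSeq starts of the tested genes are shown because ACHE and SLC18A3 rose and BCHE fell after the same siRNA (below). Another reason is that the targeted factors bind E-boxes, the 6-base motif CANNTG. Each run is 250 bases from RefSeq (GRCh38.p14), 5′ to 3′ on the gene's own strand, ending at the base before an annotated start. Both ACHE windows shown lie within the span of ACHE given above and overlap each other at their ends. The BCHE window partly overlaps the span of BCHE. Capitals mark E-boxes (CANNTG, which includes CACGTG, the form bound by MYC proteins, and CATCTG or its reverse CAGATG, a form reported for HAND2) and GC boxes (GGGCGG or CCGCCC), searched on both strands with overlapping matches counted.
ACHE, chr7:100895889-100896138, minus strand: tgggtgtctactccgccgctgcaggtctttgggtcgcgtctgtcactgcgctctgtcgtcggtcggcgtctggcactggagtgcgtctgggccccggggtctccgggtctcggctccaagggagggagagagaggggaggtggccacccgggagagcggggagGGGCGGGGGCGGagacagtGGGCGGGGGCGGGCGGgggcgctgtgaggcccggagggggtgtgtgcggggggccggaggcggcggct
ACHE, second RefSeq start, chr7:100896130-100896379, minus strand: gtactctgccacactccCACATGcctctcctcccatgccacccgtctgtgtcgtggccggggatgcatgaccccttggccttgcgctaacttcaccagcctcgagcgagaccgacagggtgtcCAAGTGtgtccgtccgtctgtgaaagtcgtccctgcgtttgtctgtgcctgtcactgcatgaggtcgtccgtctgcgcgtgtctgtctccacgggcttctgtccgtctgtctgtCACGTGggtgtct
SLC18A3, chr10:49610060-49610309, plus strand: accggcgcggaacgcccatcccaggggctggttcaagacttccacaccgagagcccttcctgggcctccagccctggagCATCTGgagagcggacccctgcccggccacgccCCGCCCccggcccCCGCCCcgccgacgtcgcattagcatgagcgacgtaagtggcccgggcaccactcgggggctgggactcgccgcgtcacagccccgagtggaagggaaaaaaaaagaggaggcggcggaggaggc
BCHE, chr3:165837424-165837673, minus strand: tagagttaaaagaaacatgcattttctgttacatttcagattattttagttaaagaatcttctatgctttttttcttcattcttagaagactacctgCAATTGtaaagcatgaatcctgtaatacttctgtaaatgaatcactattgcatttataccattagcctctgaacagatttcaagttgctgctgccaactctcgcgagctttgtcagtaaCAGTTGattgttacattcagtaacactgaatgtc

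The promoters differ in base composition. That of ACHE at its canonical start had 75.2% GC, 26 CpG dinucleotides and 5 GC boxes, some of them overlapping, and no E-box; 89.9% of 35116 RefSeq promoters had a lower GC content. The window at the second ACHE start had 61.2% GC and 3 E-boxes, of which 1 was CACGTG. That CACGTG straddles the upstream edge of the canonical window, so the lack of an E-box there depends on the window length chosen. The window at a further RefSeq start of ACHE, not printed here, had 71.6% GC, 19 CpG dinucleotides, 1 GC box and no E-box. SLC18A3 had 70.8% GC, 25 CpG dinucleotides, 2 GC boxes and 1 E-box of the CATCTG form. BCHE stood at the other end, with 33.2% GC, 2 CpG dinucleotides, 2 E-boxes and 1 TATAAA motif, and only 3.6% of promoters had a lower GC content. Over all promoters of this length, 61.8% held an E-box, 6.3% a CACGTG, 12.2% a CATCTG or CAGATG, 42.6% a GC box and 10.7% a TATAAA or its reverse. A match is a description of the letters and not a binding site.

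The libraries held 21.1 to 32.7 M reads by the size of the smallest steps in the table. The targeted transcripts were lower where the labels say so, though MYCN fell in both knockdowns: its mean in siMYCN was 70.0% and in siHAND2 49.6% of that in siCTR. HAND2 was at 54.2% in siHAND2 and at 113.9% in siMYCN. The 8 sympathoadrenal markers of neuroblastoma summed to 2109 to 2246 CPM per library in siCTR, 2681 to 2764 CPM in siMYCN and 2175 to 2285 CPM in siHAND2. All 8 were detected in every group. In siHAND2 the sum hid opposite differences from siCTR. STMN2 had group means of 176.5, 289.2 and 342.9 CPM in siCTR, siMYCN and siHAND2, and GAP43 35.46, 55.45 and 61.35 CPM. DBH had 263.4, 343.8 and 130.1 CPM, and TH 2.95, 4.08 and 1.43 CPM. As a share of the siCTR mean, the other markers moved less in siHAND2, some up and some down. The 6 fibroblast markers summed to 277 to 282, 325 to 329 and 556 to 628 CPM, mostly PDGFRA, PDGFRB and THY1. Of the other 3, COL1A1 had group means of 0.720, 0.507 and 0.363 CPM in siCTR, siMYCN and siHAND2, COL3A1 1.42, 4.19 and 3.84 CPM, and DCN 0.431, 1.30 and 11.02 CPM. COL3A1 and DCN rose in both knockdowns (COL3A1 by 1.11 and 1.00 and DCN by 0.68 and 3.07 on the log2(CPM + 1) scale, limma, adjusted p at most 2.46e-04). PDGFRA rose in both as well, by 0.25 and 1.48 (limma, adjusted p = 0.00176 and 9.15e-12). PDGFRB rose by 0.98 in siHAND2 (adjusted p = 3.84e-09) and did not pass in siMYCN (0.14, adjusted p = 0.0913). THY1 had group means of 65.4, 77.7 and 56.8 CPM in siCTR, siMYCN and siHAND2. The 6 Schwann cell and glial markers with a row, SOX10 among them, summed to at most 3.44 CPM in any library, the 3 immune markers to at most 0.724 CPM and the 4 endothelial markers to at most 1.19 CPM. The part of these marker differences in the cholinergic differences was not tested, and in bulk RNA fewer cells of a type and less RNA per cell cannot be told apart.

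Transcripts of the synthetic enzyme were at the edge of detection in every library, while the vesicular transporter encoded inside its gene was readily counted. CHAT measured 0.153, 0.374 and 0.0476 CPM in siCTR replicates 1, 2 and 3, which are 5, 10 and 1 reads. It measured 0.121, 0.269 and 0.274 CPM with siMYCN and 0.0988, 0.0798 and 0.213 CPM with siHAND2. The groups overlap fully, and the spread within siCTR is as wide as the whole range. Summed over a group, 16 reads in siCTR gave 0.199 CPM (95% exact Poisson interval 0.114 to 0.323, counting error only), 18 reads in siMYCN 0.225 (0.133 to 0.355) and 11 reads in siHAND2 0.131 (0.0656 to 0.235). The 3 intervals overlap, and a difference in CHAT was not detectable at this depth. In a fit without the filter, limma gave log2 differences of 0.04 in siMYCN (Benjamini-Hochberg adjusted p = 0.837) and -0.07 in siHAND2 (adjusted p = 0.688) against siCTR.

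SLC18A3 measured 6.14, 6.96 and 5.65 CPM with the control siRNA, 10.47, 10.05 and 8.64 CPM with siMYCN and 6.51, 6.57 and 4.50 CPM with siHAND2. Every siMYCN library was above every other library, and the siHAND2 libraries overlapped those of siCTR, with replicate 3 the lowest of all 9. These values rest on 119 to 262 reads per library. Group means were 6.25 ± 0.66, 9.72 ± 0.96 and 5.86 ± 1.18 CPM (SD over 3 libraries), and the transporter transcript in siMYCN was at 155.4% of siCTR. On the log2(CPM + 1) scale SLC18A3 rose by 0.56 in siMYCN (95% interval 0.31 to 0.82, limma, adjusted p = 0.00156). In siHAND2 the difference was -0.09 (95% interval -0.34 to 0.16, adjusted p = 0.602), and without siHAND2 replicate 3 it was 0.06 (adjusted p = 0.698).

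ACHE showed the largest difference of the tested members, in siMYCN. It measured 5.84, 5.65 and 6.22 CPM under siCTR, 13.5, 15.0 and 15.1 CPM under siMYCN and 5.23, 5.42 and 5.63 CPM under siHAND2. The siMYCN libraries lay far above the other 6. The siHAND2 libraries lay just below those of siCTR without overlap. The means were 5.90 ± 0.29, 14.5 ± 0.90 and 5.43 ± 0.20 CPM (SD, n = 3 each), which puts siMYCN 2.46-fold above siCTR. The log2 difference was 1.17 in siMYCN (standard error 0.08, 95% interval 1.00 to 1.34, limma, adjusted p = 4.43e-08) and -0.10 in siHAND2 (95% interval -0.27 to 0.07, adjusted p = 0.357), which did not pass the threshold of 0.05.

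BCHE, the other cholinesterase, fell after both siRNAs. It measured 11.95, 11.4 and 11.6 CPM across the siCTR libraries, 9.38, 8.67 and 8.29 CPM across those of siMYCN and 8.98, 9.08 and 9.46 CPM across those of siHAND2. All 6 knockdown libraries were below all 3 siCTR libraries, and the ranges of the knockdown groups overlapped each other. The means were 11.7 ± 0.29, 8.78 ± 0.55 and 9.17 ± 0.25 CPM (SD, n = 3 each), or 75.4% and 78.7% of siCTR. The log2 difference was -0.37 in siMYCN (95% interval -0.53 to -0.22, limma, adjusted p = 8.67e-04) and -0.31 in siHAND2 (95% interval -0.47 to -0.16, adjusted p = 0.00382). These contrasts share the siCTR libraries.

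**Figure D1:**
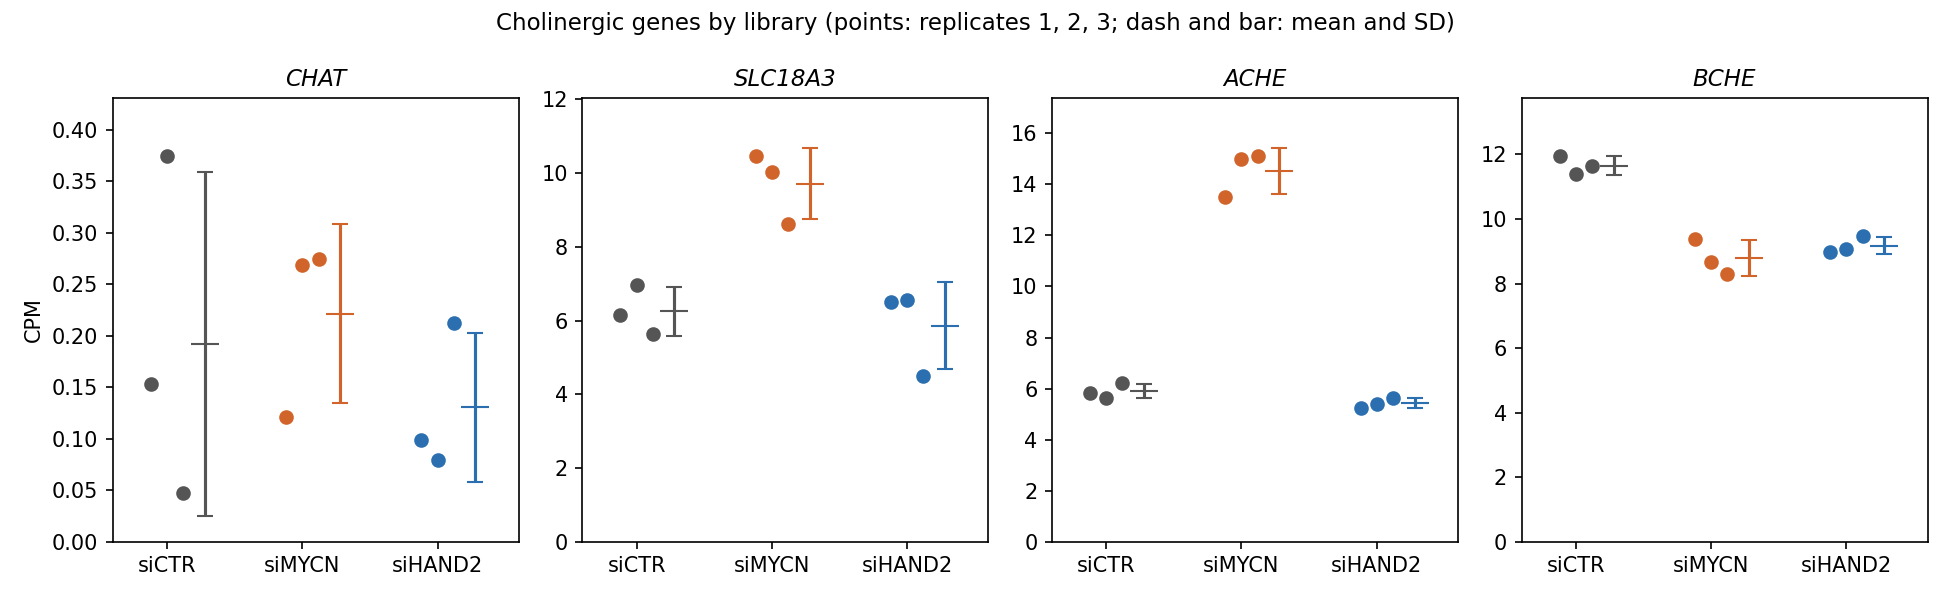
Level of CHAT, SLC18A3, ACHE and BCHE in each library in CPM (points, replicates 1 to 3 from left to right), with the mean and SD of each siRNA group (dash and bar). SLC18A3 and ACHE are highest in the 3 siMYCN libraries, BCHE is highest in the 3 siCTR libraries, and CHAT stays below 0.4 CPM with overlapping groups.

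In siMYCN against siCTR, 3 of the 3 tested members thus passed the threshold, 2 higher and 1 lower, where 35.9% of the 14495 genes tested did so (24.5% higher and 11.4% lower). In siHAND2 against siCTR, 1 of 3 passed, and it was lower, against a background of 29.9% (18.1% higher and 11.8% lower). With calls this common among all genes, a count over 3 members says little by itself, and the sizes above carry the description.

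The knockdowns were also compared directly. ACHE was lower in siHAND2 than in siMYCN by -1.27 on the log2(CPM + 1) scale (95% interval -1.44 to -1.10, limma, adjusted p = 2.91e-09). SLC18A3 was lower by -0.65 (95% interval -0.91 to -0.40, adjusted p = 5.38e-04). BCHE did not pass the test, with a difference of 0.06 (95% interval -0.10 to 0.21, adjusted p = 0.602). In this contrast 2 of 3 tested members were called, both lower, where 26.9% of all genes tested were called (11.4% higher and 15.5% lower). MYCN transcript itself was lower in siHAND2 than in siMYCN (log2 difference -0.50, limma, adjusted p = 6.21e-07), and so was HAND2 transcript (-1.07, adjusted p = 9.48e-12). The relation of the level of either target to that of ACHE was not tested.

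**Figure D2:**
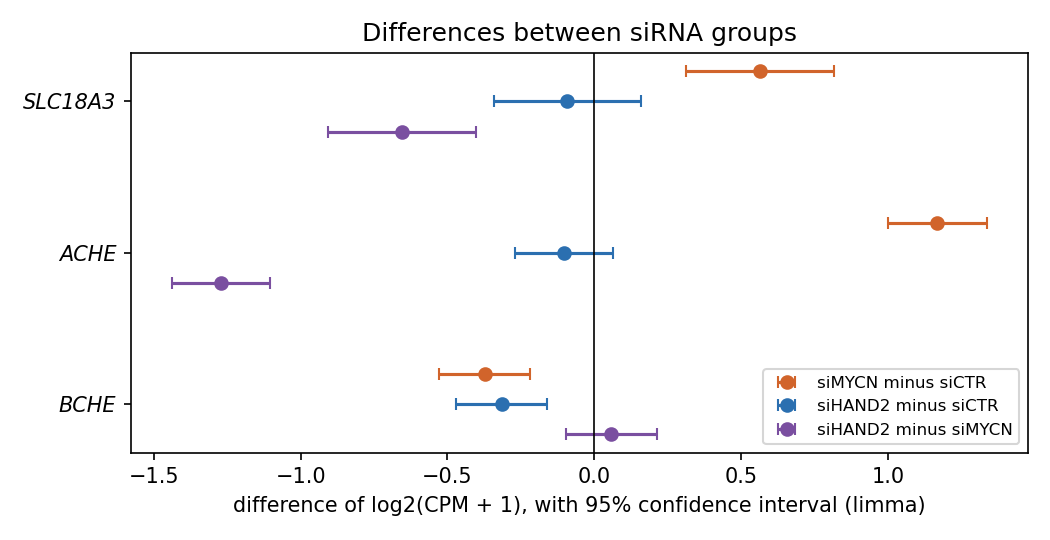
Differences between siRNA groups on the log2(CPM + 1) scale for the 3 tested genes, with 95% confidence intervals from limma. The intervals of SLC18A3 and ACHE in siHAND2 against siCTR and of BCHE in siHAND2 against siMYCN include 0, and the other 6 do not.

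Levels were set against each other per kb of the canonical transcript, since CPM does not allow for length. In siCTR, BCHE was the most abundant at 4.85 ± 0.12 CPM per kb, followed by ACHE at 2.72 ± 0.13 and SLC18A3 at 2.59 ± 0.28, whose ranges overlapped, and by CHAT at 0.0362 ± 0.0315 (SD, n = 3 each). In siMYCN the order changed to ACHE at 6.69 ± 0.42, SLC18A3 at 4.03 ± 0.40 and BCHE at 3.65 ± 0.23 CPM per kb, the last pair overlapping. In siHAND2 the means had the same order as in siCTR, with 3.81 ± 0.11 for BCHE, 2.498 ± 0.09 for ACHE and 2.43 ± 0.49 for SLC18A3. The ranges of ACHE and SLC18A3 overlapped there too, and SLC18A3 was below ACHE in siHAND2 replicate 3 only.

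The balance of the cholinesterase transcripts therefore turned over in siMYCN. Per kb, the ratio of ACHE to BCHE was 0.541, 0.550 and 0.592 with the control siRNA, 1.59, 1.92 and 2.02 with siMYCN and 0.645, 0.661 and 0.659 with siHAND2. BCHE was the more abundant in all 6 siCTR and siHAND2 libraries and ACHE in all 3 siMYCN libraries, and the 3 groups did not overlap. ACHE made up 35.1% to 37.2% of the summed cholinesterase transcripts in siCTR, 61.4% to 66.9% in siMYCN and 39.2% to 39.8% in siHAND2. The mean log2 ratio differed from siCTR by 1.71 in siMYCN and by 0.22 in siHAND2, and each of the 3 pairwise comparisons gave a two-sided exact permutation p of 0.1 (0.1 after Benjamini-Hochberg adjustment), the smallest that 3 libraries against 3 allow.

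**Figure D3:**
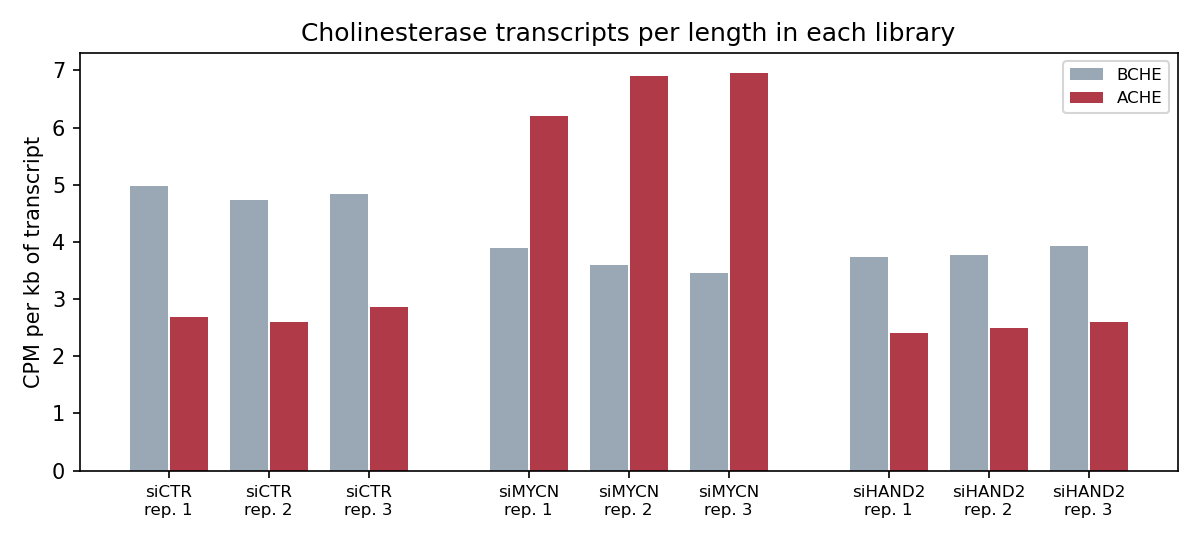
BCHE and ACHE transcripts in CPM per kb of canonical transcript in each of the 9 libraries (bars from 0). The ACHE bar exceeds the BCHE bar in the 3 siMYCN libraries only.

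The rest of cholinergic signalling was described with 8 lists of 70 genes besides the members, covering cholinesterase anchors, choline supply, acetyl-CoA supply, nicotinic receptors, muscarinic receptors, receptor chaperones and Ly6 modulators, cholinergic differentiation cytokines and peptides. Of these, 61 had a row and 45 were tested. In siMYCN against siCTR 16 of the 45 were higher and 4 lower, where 24.5% of all genes tested were higher and 11.4% lower (median log2 difference 0.13, against 0.06 over all genes tested). In siHAND2 against siCTR 7 were higher and 12 lower, beside 18.1% and 11.8% of all genes (median -0.01, against 0.04). In siHAND2 against siMYCN 4 were higher and 13 lower, beside 11.4% and 15.5% (median -0.10, against -0.01). The same shares over all genes are the background for the counts of each list below. With so few genes in a list, a count says little by itself. Median-ratio rescaling turned the share of higher genes among all calls from 68.3% to 49.7% in siMYCN and from 60.6% to 42.1% in siHAND2, while among the list calls it went from 80.0% to 73.7% and from 36.8% to 33.3%.

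Of the cholinesterase anchors, PRIMA1, the membrane anchor that holds ACHE tetramers at neuronal surfaces, was higher in siMYCN, as ACHE was. It measured 8.13, 6.63 and 8.16 CPM with the control siRNA, 9.18, 10.0 and 10.7 CPM with siMYCN and 7.20, 7.73 and 7.40 CPM with siHAND2, so that the siMYCN libraries were above all others. PRIMA1 rose by 0.35 on the log2 scale in siMYCN (limma, adjusted p = 0.00636), and the siHAND2 difference was -0.03 (adjusted p = 0.841). COLQ, the collagen tail that anchors the muscle form of the enzyme, had group means of 0.620, 0.673 and 0.717 CPM and was not tested.

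Most genes of choline supply passed no test. Of 13 tested choline supply genes, 1 rose and 1 fell in siMYCN, and 2 rose and 1 fell in siHAND2. SLC44A2, a choline transporter of the plasma membrane and mitochondria, rose in both, by 0.39 in siMYCN (limma, adjusted p = 1.33e-04) and by 0.24 in siHAND2 (adjusted p = 0.00683), from means of 40.1 ± 2.44 to 53.0 ± 1.38 and 47.8 ± 4.13 CPM (SD, n = 3). CHPT1, which makes phosphatidylcholine from CDP-choline, fell by 0.25 in siMYCN (adjusted p = 0.00623), and PEMT, which makes it by methylation, fell by 0.32 in siHAND2 (adjusted p = 0.00362). PCYT1B, a form of the enzyme that makes CDP-choline, rose by 0.22 in siHAND2 (adjusted p = 0.0255), but not under either rescaling (0.17, adjusted p = 0.0851, and 0.18, adjusted p = 0.0764), nor without siCTR replicate 2 or 3 or siHAND2 replicate 1 or 2 (adjusted p = 0.0593 to 0.145). The low-affinity carrier SLC44A1 was at 93.7, 97.7 and 89.6 CPM in siCTR, siMYCN and siHAND2 and passed no test.

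All 7 acetyl-CoA supply genes were tested. In siMYCN 1 rose and 3 fell, and in siHAND2 3 fell, of which DLAT (-0.13, limma, adjusted p = 0.0426) was lost without any 1 of the siCTR libraries or siHAND2 replicate 1 or 2 (adjusted p = 0.0773 to 0.117), without a filter on low values (adjusted p = 0.0561) and without the intensity trend (adjusted p = 0.0849). ACSS2, which makes acetyl-CoA from acetate, rose by 0.46 in siMYCN, from 20.3 to 28.3 CPM (limma, adjusted p = 4.72e-05). CS, the citrate synthase of mitochondria, fell from 157 ± 1.91 CPM in siCTR to 131 ± 5.24 in siMYCN and 139 ± 2.11 in siHAND2 (SD, n = 3; log2 differences -0.26 and -0.17, adjusted p = 1.52e-04 and 0.00522). PDHA1, a subunit of pyruvate dehydrogenase, fell by 0.18 and 0.19 (adjusted p = 0.00721 and 0.00674). ACLY, which makes cytosolic acetyl-CoA from citrate, had 635, 638 and 604 CPM and passed no test.

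Several acetylcholine receptor genes were higher in siMYCN and lower in siHAND2. Of the 6 tested nicotinic subunits 5 were higher in siMYCN and 0 lower, and in siHAND2 0 were higher and 2 lower. CHRNA3, the alpha subunit typical of autonomic ganglia, measured 107, 105 and 116 CPM under siCTR, 212, 197 and 209 CPM under siMYCN and 83.8, 82.8 and 83.9 CPM under siHAND2. The 3 groups did not overlap. CHRNA3 rose by 0.91 in siMYCN (limma, adjusted p = 2.44e-09) and fell by 0.39 in siHAND2 (adjusted p = 7.84e-06).

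CHRNA7, which forms receptors of a single subunit type, measured 174, 176 and 168 CPM across the siCTR libraries, 246, 237 and 252 CPM across those of siMYCN and 125, 126 and 137 CPM across those of siHAND2. It too had no overlap between groups, with a rise of 0.50 in siMYCN (limma, adjusted p = 4.97e-07) and a fall of 0.41 in siHAND2 (adjusted p = 2.86e-06). Its values are uncertain to the extent that reads were split with CHRFAM7A, a partial copy of the gene, which had means of 12.3, 13.4 and 10.7 CPM. CHRNA5, an accessory subunit, rose by 0.22 in siMYCN (adjusted p = 0.0100), and CHRNB1, the beta subunit of muscle, by 0.39 (adjusted p = 0.0102, and 0.0541 without siCTR replicate 1). CHRNB2, the main beta subunit in brain, rose by 0.17 (adjusted p = 0.0255) but did not pass under median-ratio rescaling (0.11, adjusted p = 0.173), quantile normalization (0.11, adjusted p = 0.142) or without the intensity trend (adjusted p = 0.0682), nor without siCTR replicate 2 or siMYCN replicate 1 or 3 (adjusted p = 0.0660 to 0.141). CHRNB4, the usual ganglionic partner of CHRNA3, had group means of at most 0.0727 CPM and was not tested. Per kb, CHRNA3 was the most abundant subunit in siCTR at 36.3 CPM, above CHRNA7 at 28.1, CHRNB2 at 11.4 and CHRNA5 at 10.8.

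Among the 5 muscarinic receptors 4 were tested, of which 3 rose in siMYCN, and in siHAND2 1 rose and 2 fell. CHRM4, which couples to inhibitory G proteins, measured 9.32, 9.21 and 9.54 CPM with the control siRNA, 15.8, 15.0 and 14.7 CPM with siMYCN and 5.13, 6.13 and 5.42 CPM with siHAND2. The groups were far apart, with a rise of 0.64 in siMYCN (limma, adjusted p = 9.83e-06) and a fall of 0.66 in siHAND2 (adjusted p = 6.98e-06). CHRM1, which couples to Gq, was low in siCTR, at 1.10, 1.16 and 1.04 CPM, and stood at 3.02, 2.88 and 3.08 CPM in siMYCN and at 0.724, 0.709 and 0.638 CPM in siHAND2. It rose by 0.93 in siMYCN (adjusted p = 8.32e-06), a scale that understates the change of a gene near 1 CPM. Its fall of 0.31 in siHAND2 (adjusted p = 0.0400) was lost when any of the 9 libraries was left out (adjusted p = 0.0506 to 0.116), with a pseudocount of 5 (adjusted p = 0.0856) and in a fit of siHAND2 and siCTR alone (adjusted p = 0.0805).

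CHRM2, the other receptor that couples to inhibitory G proteins, was highest in siHAND2. It measured 17.2, 16.5 and 16.8 CPM under siCTR, 19.6, 20.4 and 21.3 CPM under siMYCN and 24.5, 23.7 and 25.5 CPM under siHAND2. It was higher in both knockdowns, by 0.26 in siMYCN (limma, adjusted p = 0.00251) and by 0.52 in siHAND2 (adjusted p = 5.40e-06), and higher in siHAND2 than in siMYCN by 0.26 (adjusted p = 0.00414). CHRM3 had means of 3.39, 4.12 and 3.47 CPM and passed no test, and CHRM5 stayed at or below 0.315 CPM in the group means.

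**Figure D4:**
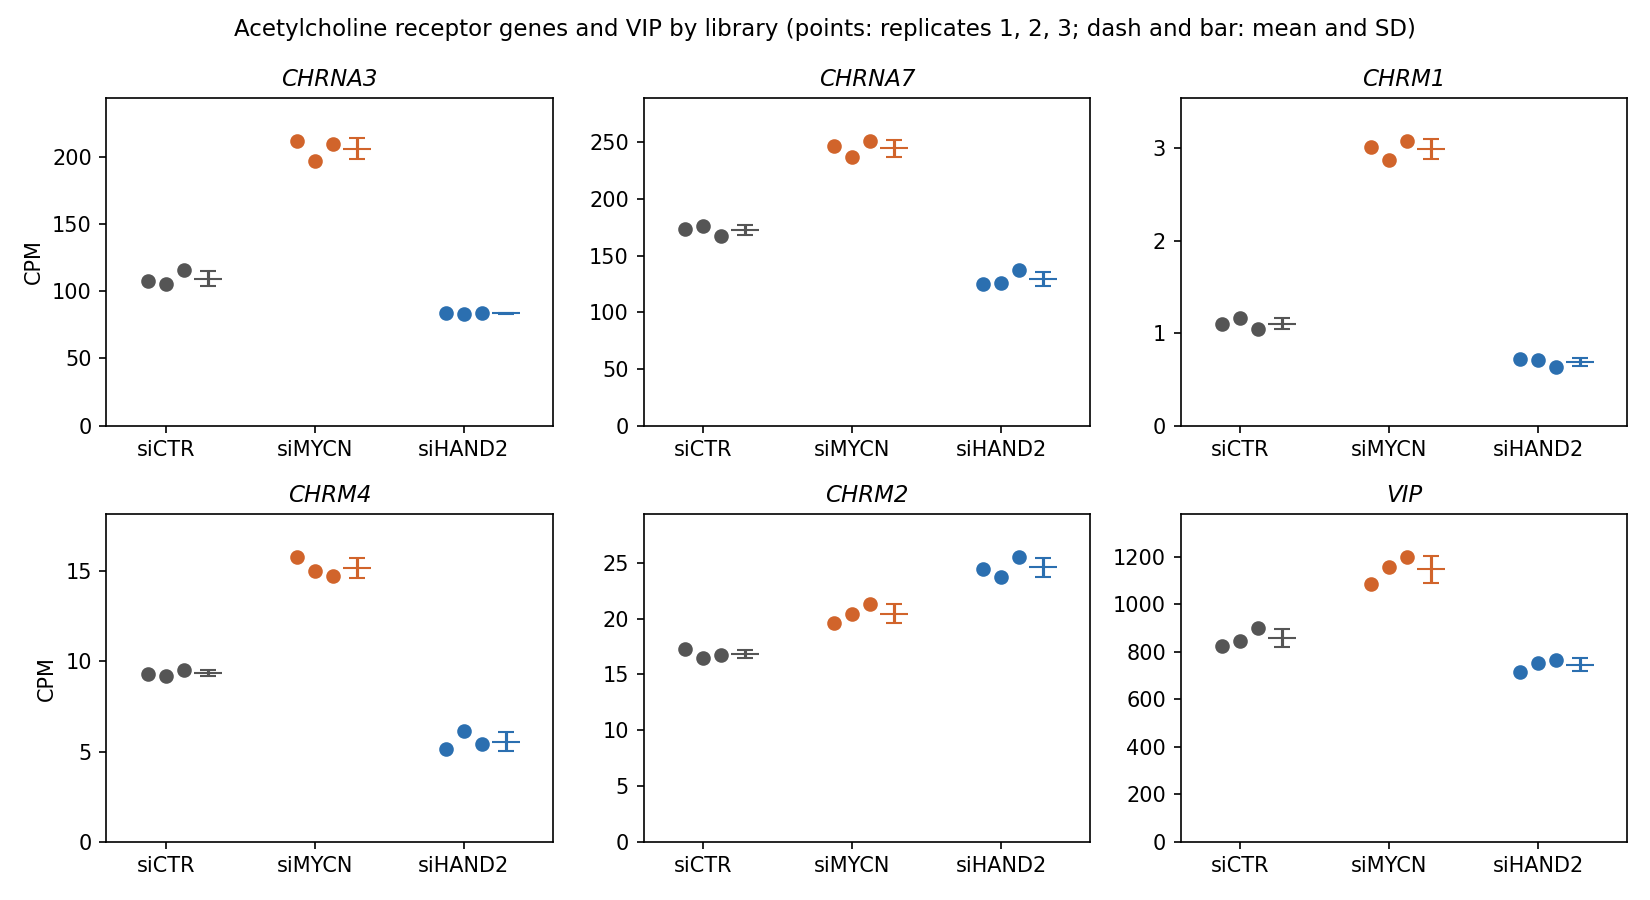
CPM of 5 acetylcholine receptor genes and of VIP in each library (points), with mean and SD (dash and bar). CHRNA3, CHRNA7, CHRM1, CHRM4 and VIP are highest in siMYCN and lowest in siHAND2, while CHRM2 is highest in siHAND2.

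Of the genes that help nicotinic receptors assemble or tune them, 4 were tested, of which 2 rose and 0 fell in siMYCN, and 1 rose and 1 fell in siHAND2. LYNX1, a membrane-bound Ly6 protein that dampens nicotinic receptors, rose by 0.56 in siMYCN (limma, adjusted p = 2.20e-04), from 5.05 to 7.90 CPM. TMEM35A, a chaperone needed for CHRNA7 receptors, rose by 0.29 in siMYCN (adjusted p = 0.00158) and by 0.27 in siHAND2 (adjusted p = 0.00314), so that in siHAND2 it moved opposite to CHRNA7. LYPD6, a Ly6 protein that binds nicotinic receptors, fell by 0.22 in siHAND2 (adjusted p = 0.0374), from 16.2 to 13.8 CPM. That call was lost without a filter on low values (adjusted p = 0.0671), without the intensity trend (adjusted p = 0.0503) and when siCTR replicate 2 or 3 or siHAND2 replicate 1 or 2 was left out (adjusted p up to 0.144). RIC3, another such chaperone, had 13.5, 14.5 and 12.6 CPM and passed no test.

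The cytokine pathway of the cholinergic switch was mixed. Of its 9 tested genes 2 rose and 0 fell in siMYCN, and 3 rose and 2 fell in siHAND2. Of the rises in siMYCN, that of LIFR (0.23, limma, adjusted p = 0.0216) no longer passed when siCTR replicate 1 or 2 or siMYCN replicate 3 was left out (adjusted p = 0.0584 to 0.124), and neither did it under median-ratio rescaling (0.17, adjusted p = 0.0689), quantile normalization (0.17, adjusted p = 0.0803) or without the intensity trend (adjusted p = 0.0677). JAK1, the kinase bound to the shared receptor chain, rose from 140 ± 5.66 CPM in siCTR to 209 ± 15.8 CPM in siMYCN (log2 difference 0.58, limma, adjusted p = 4.65e-07) and fell to 120 ± 2.33 CPM in siHAND2 (-0.22, adjusted p = 0.00350; SD, n = 3). The receptor subunits LIFR and CNTFR rose in siHAND2, by 0.48 (adjusted p = 9.60e-05) and 0.32 (adjusted p = 0.00272), and so did SOCS3, a feedback inhibitor induced by the pathway, by 0.49 (adjusted p = 0.00152). IL6ST, the shared chain itself, fell by 0.20 in siHAND2 (adjusted p = 0.00925, and 0.0587 without siHAND2 replicate 2). The ligand LIF had 3.20, 3.22 and 3.56 CPM and passed no test.

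VIP, the vasoactive intestinal peptide that cholinergic sympathetic neurons release with acetylcholine, was among the most abundant transcripts examined. It measured 825, 848 and 900 CPM across the siCTR libraries, 1086, 1158 and 1199 CPM across those of siMYCN and 717, 755 and 767 CPM across those of siHAND2. The groups did not overlap, and VIP rose by 0.42 in siMYCN (limma, adjusted p = 5.97e-06) and fell by 0.20 in siHAND2 (adjusted p = 0.00488). Of the 4 peptide genes listed, 2 had a row, VIP and SST, and only VIP was tested. SST was low and did not share the pattern of VIP, with group means of 0.660, 0.604 and 1.33 CPM in siCTR, siMYCN and siHAND2. Since the use of strand in counting is not given in the sources used here, values of list genes that overlap a gene on the other strand are uncertain. Among those named these are CHRNA3 with CHRNA5 (2218 shared bases), CHRM2, CHRM3, CHRM5, RIC3, VIP, COLQ, CHPT1 and PEMT. The others are LIF, LIFR, CNTFR, PDHA1, DLAT, CS, ACSS2, JAK1 and DBH. The targets HAND2 and MYCN overlap such a gene as well. On its own strand LYNX1 shares its span with a readthrough gene, and CHRNB1, COLQ, CS, JAK1 and SLC6A2 each overlap another gene on theirs. Of the other cell type markers named, NGFR, THY1, SOX10 and LHX8 overlap a gene on the other strand, and GAP43 and PDGFRA one on their own.

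**Figure D5:**
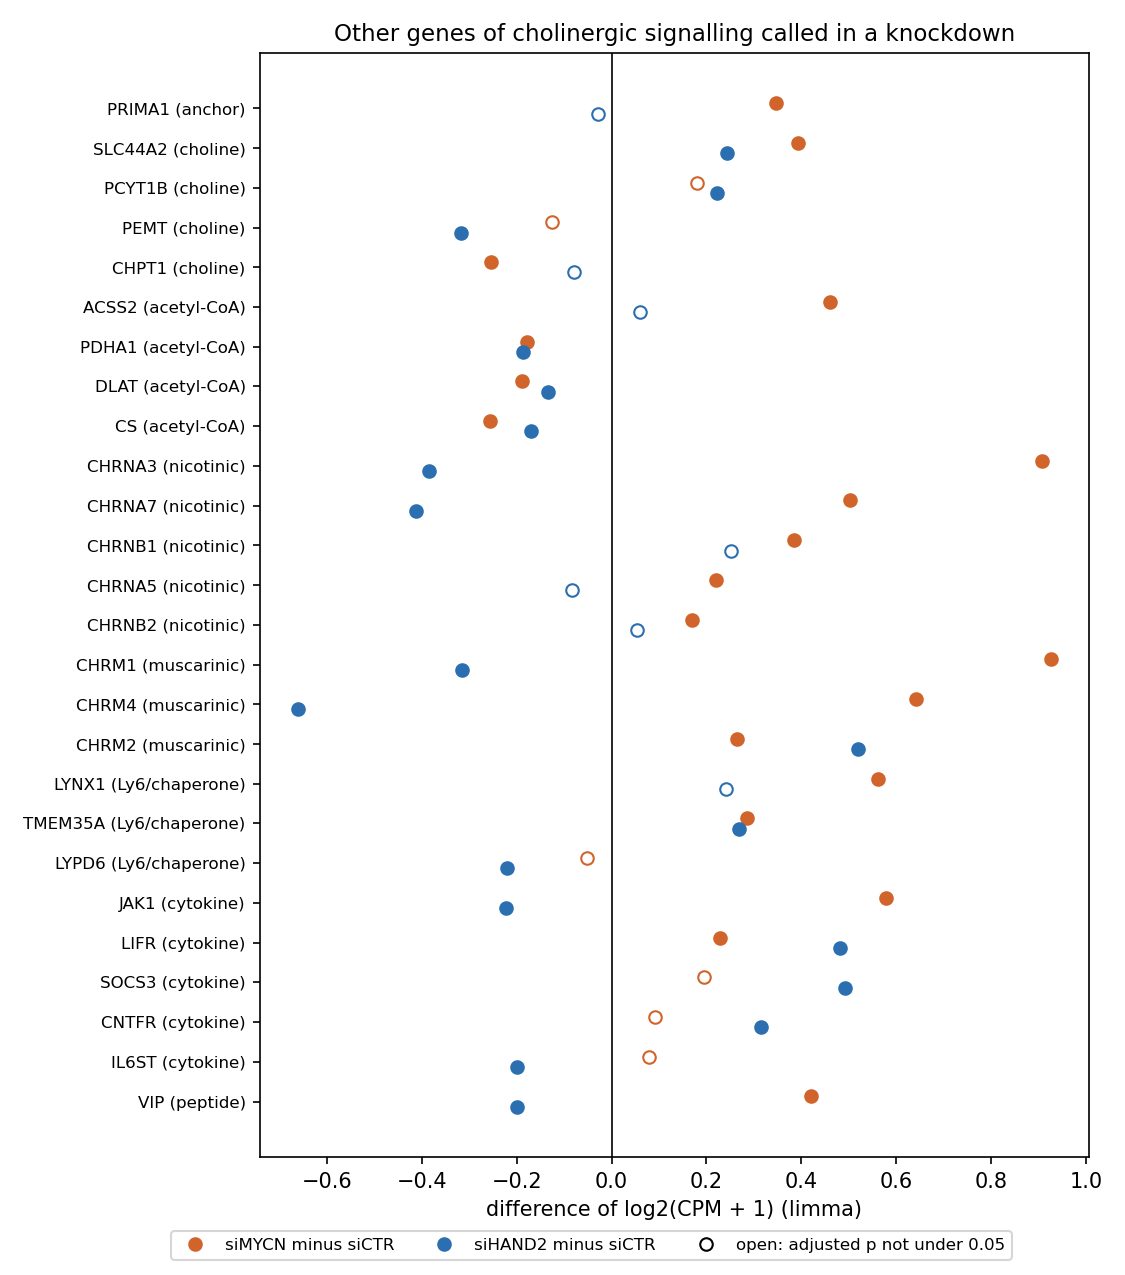
Differences from siCTR on the log2(CPM + 1) scale for the 26 list genes, of 45 tested, that passed the threshold in at least 1 knockdown. Filled points passed an adjusted p of 0.05 and open points did not. CHRNA3, CHRNA7, CHRM1, CHRM4, JAK1 and VIP are higher in siMYCN and lower in siHAND2.

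The genes whose profile over the 9 libraries was most like that of each tested member were looked for among the 11201 tested genes whose mean reached 5 CPM, by Pearson's r of log2(CPM + 1). The 9 points share 3 groups, so r mainly follows the group means and is given as a description. For ACHE these were SEMA3C (r = 0.995), a secreted semaphorin, ASL (0.994), the argininosuccinate lyase, and CADPS (0.990), a priming factor of dense-core vesicles, and 121 genes reached 0.95. SEMA3C had group means of 24.9, 60.8 and 22.5 CPM in siCTR, siMYCN and siHAND2, a rise of like size to that of ACHE. For SLC18A3 they were JPH3 (0.976), MCRIP1 (0.975) and TNK2 (0.974), with 25 genes at or above 0.95. For BCHE they were THBS2 (0.989), a matrix thrombospondin that fell from 43.6 to 20.4 and 23.3 CPM, PGAM1 (0.980), a glycolytic enzyme, and MCU (0.977), the mitochondrial calcium uniporter, with 54 genes at or above 0.95.

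The genes on either side of the nested CHAT and SLC18A3 locus were examined for position. ERCC6, a repair gene 69556 bases below CHAT, had means of 23.7, 27.2 and 27.6 CPM in siCTR, siMYCN and siHAND2, and rose in both knockdowns (log2 differences 0.19 and 0.21, limma, adjusted p = 0.0217 and 0.0127). OGDHL, 66698 bases above CHAT, had means of 26.7, 26.1 and 23.8 CPM and passed no test. A test of the difference between these genes and SLC18A3 was not made.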

How the data were processed

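The authors deposited 1 table of CPM values over 25084 genes with a column for each of the 9 libraries, and every value carries a constant of 0.0001. STAR 2.5.1 and Partek, and the builds hg19 and GRCh37, are named in the submitters' processing notes. However, of 18215 gene symbols in RefSeq, 91.4% had a start within 5000 bases in GRCh38.p14, and of 18111 in the GRCh37 annotation 5.6% did, so positions are given as GRCh38, counted from 1. How reads were counted, whether strand was used and how reads matching more than 1 gene were treated are not given in the sources used here.

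Depth, 21.1 to 32.7 M reads per library, was taken from the smallest step between low values. Only 79.8% to 81.3% of low values were within 0.02 of a whole read, so no count model was used, although every value of CHAT, SLC18A3, ACHE and BCHE was whole. Genes reaching 1 CPM in 3 or more libraries (14495 tested, 10589 left out) were fitted as log2(CPM + 1) with limma 3.58.1 in R 4.3.3, using 1 mean per group over all 9 libraries and an intensity trend. Tests were two-sided, with Benjamini-Hochberg adjustment over all genes tested in a contrast and a threshold of 0.05. The model was also run on simulated counts that had the same dispersion for every gene and no deviation shared by replicate number. That run checks the fit under those settings only and does not bear on the spread of these libraries. A difference on this scale understates the change of low genes.

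Levels per kb used the canonical transcript length of the GENCODE annotation on GRCh37. Named genes are the 5 members, the targets, list genes that passed the threshold against siCTR, the 3 with the largest change in each list, the 3 genes most like each member, and neighbours; list genes that passed no test are named with values where a reader would look for them, chosen after their values were seen. The set of members and the lists were chosen with earlier results of these data known, although the rule that finds the members' rows uses symbols alone. No 2 libraries of a group agreed within counting noise (chi-square per gene 3.53 to 12.4), replicates correlated at 0.994 to 0.998, and no batch was labelled. Alternatives tried were quantile normalization, median-ratio rescaling, other pseudocounts (0.1 and 5), a filter at 5 CPM or none, only the 2 groups of a contrast in the fit, no trend, voom precision weights, replicate number as a block, and leaving out each library.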

Additional observations from a re-analysis of the deposited data

How the results depend on the processing

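The 9 member differences were recomputed under 19 alternatives, 10 of the processing and 9 leaving out 1 library each, and no call was gained or lost. ACHE in siMYCN against siCTR ranged from 0.84 to 1.31 on the log2 scale, SLC18A3 from 0.39 to 0.64 and BCHE from -0.45 to -0.27, and BCHE in siHAND2 from -0.37 to -0.23. The single change of sign was that of SLC18A3 in siHAND2, which went from -0.09 to 0.0606 (adjusted p = 0.698, limma) without siHAND2 replicate 3, and lay between -0.17 and 0.0606 over the libraries left out; neither passed the test. With the replicate number as a block, the members called stayed at 3, 1 and 2 for siMYCN and siHAND2 against the control and for the direct comparison, and the list genes called went from 20, 19 and 17 to 24, 21 and 20. The main fit did not pair libraries by number, because the labels do not tie a number to a day or culture. Same-numbered libraries nevertheless shared some deviation from their group means. Of 9 such pairs, 6 correlated above 0.1 (range -0.04 to 0.305), and in 15 of 18 comparisons a library correlated best with its own number. With the block, calls over all genes tested went from 5209, 4339 and 3892 to 5895, 5089 and 4689. Leaving out 1 library gave 19 to 23, 14 to 20 and 12 to 17 list calls. Of the 56 calls of genes of the 8 lists over the 3 contrasts, 42 kept direction and call under every alternative and 14 were lost under at least 1; the cause was not tested. CHAT could not be compared at these depths, with 1 to 10 reads per library.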

Other observations

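The genes of noradrenaline handling, the counterpart of the cholinergic set in sympathetic neurons, were measured in the same libraries. Of 8 such genes 6 were tested, and all 6 were higher in siMYCN and 0 lower, while 5 were lower in siHAND2 and 0 higher; over all genes tested, 24.5% were higher in siMYCN and 11.8% lower in siHAND2. SLC6A2, the noradrenaline transporter, measured 25.4, 21.95 and 26.1 CPM with the control siRNA, 56.1, 50.4 and 53.7 CPM with siMYCN and 17.8, 17.8 and 18.5 CPM with siHAND2, with log2 differences of 1.10 (limma, adjusted p = 1.48e-08) and -0.42 (adjusted p = 1.64e-04) against siCTR. SLC18A1, a vesicular monoamine transporter of the same family as SLC18A3, had group means of 1.36 ± 0.15, 4.62 ± 0.78 and 0.403 ± 0.12 CPM (SD, n = 3 libraries), with differences of 1.24 (adjusted p = 2.26e-06) and -0.75 (adjusted p = 3.25e-04). DBH, which makes noradrenaline from dopamine, differed by 0.38 (adjusted p = 4.46e-05) and -1.01 (adjusted p = 6.84e-10). TH, the rate-limiting enzyme of the pathway, was low at 2.95, 4.08 and 1.43 CPM in the group means, and its rise of 0.36 in siMYCN (adjusted p = 0.0179) no longer passed when siCTR replicate 1 or 3 or siMYCN replicate 3 was left out or no filter on low values was used (adjusted p = 0.0522 to 0.0782). ACHE and SLC18A3 were thus higher in siMYCN alongside noradrenergic genes, and in siHAND2, where most of those genes were lower, neither passed the test against siCTR. Whether the responses of the sets to siHAND2 differ was not tested.

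NGFR, the low-affinity neurotrophin receptor and a marker of basal forebrain cholinergic neurons as well as of neural crest cells, had group means of 1.68, 4.86 and 3.97 CPM in siCTR, siMYCN and siHAND2. It was higher in both knockdowns, by 1.13 (limma, adjusted p = 9.17e-06) and 0.87 (adjusted p = 1.25e-04). LHX8 and GBX1, regulators of that cell type, stayed below 1 CPM in all group means.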
